A study of Homo sapiens with 12 samples.

Results

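FOS, FOSL1, FOSL2, JUN, JUNB, JUND, EGR1, ATF3, IER2 and IER3 are 10 genes of the AP-1 and immediate-early families, taken by symbol from the 20114 genes in the deposited count table. They were followed in T47D, a human breast carcinoma line known for its progesterone and estrogen receptors. Cells were held in hormone-stripped medium without phenol red, starved of serum, and treated with vehicle, 100 pM or 10 nM of a progestin (the compound is not named in the labels), which acts through the progesterone receptor. RNA was taken after 6 h and 18 h. Each of the 6 groups (vehicle, 100 pM and 10 nM at each time) had 2 libraries, numbered replicate 1 and replicate 3, and all groups shared the starvation and the medium. T47D is 1 line, and no label ties the libraries of a group to separate cultures, so the p-values reflect only library-to-library spread, which may be technical.

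Immediate-early genes are transcribed within minutes of a growth factor, serum or stress signal, mostly through MAP kinases and factors already present in the cell, and their mRNAs usually decay fast. FOS and JUN family proteins pair through leucine zippers to form AP-1, which binds a short palindromic DNA site and regulates genes of growth, invasion and survival. FOS proteins need a JUN partner, whereas JUN proteins can also pair with themselves, and the members differ in strength: JUNB and JUND often act as weaker activators than JUN. In breast epithelium AP-1 is known as a partner of both the estrogen and the progesterone receptor at DNA.

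Library totals lay between 34204970 and 41373890 counts. The 13872 genes with enough counts to test included the 10 genes above. Levels are in CPM, the usual unit of counts relative to the library total, here after TMM scaling of that total. FOSL1, with 0 to 19 counts per library, passed the count filter only through a few replicate 1 libraries. The luminal breast markers were present (9 of 9 tested, summed level 5332 to 11803 CPM), while immune markers summed to 2.82 to 5.53 CPM and endothelial markers to 0.104 to 0.927 CPM. Fibroblast markers summed to 72.2 to 120 CPM, nearly all of it COL1A1, with COL1A2 at no more than 0.0271 CPM. The luminal sum was 7008 to 7038 CPM at 10 nM and 11701 to 11773 CPM in vehicle at 6 h, and 5332 to 5423 CPM at 10 nM and 11141 to 11803 CPM in vehicle at 18 h. The receptor gene PGR itself had 493 to 589 CPM at 10 nM and 1786 to 2111 CPM in vehicle at 6 h. Basal markers summed to 10.1 to 13.2 CPM at 10 nM and 5.39 to 6.26 CPM in vehicle at 18 h, with KRT5 at 2.35 to 7.02 CPM at 10 nM and 0.0542 to 0.0839 CPM in vehicle. The part of these shifts in the results below was not tested, and fewer cells of a type and less RNA per cell cannot be told apart in bulk RNA. Replicate 3 had the higher share of mitochondrial counts in 6 of 6 groups (6.69% to 10.8% over the 12 libraries).

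Scaled to gene length (CPM per kb of exon in GENCODE 29, which may differ from the annotation used for counting), JUND and JUN stood highest. The median over the 12 libraries was 125 CPM per kb for JUND and 67.5 for JUN, followed by 34.3 for IER3, 24.9 for JUNB, 20.2 for IER2, 18.7 for FOSL2 and 13.6 for ATF3. FOS (0.968 CPM per kb), EGR1 (0.206) and FOSL1 (0.0444) were far lower. Between neighbours in this order the libraries did not overlap for JUND over JUN, ATF3 over FOS and FOS over EGR1, and they overlapped for all other neighbours. FOSL2, the FOS family protein Fra-2, made up 89.9% to 98.3% of the summed FOS, FOSL1 and FOSL2 level per kb in every library. The classic serum-response genes FOS and EGR1 stood at 53 to 320 and 8 to 33 counts per library, while JUN and JUND stood at 6373 to 12632.

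Of the 10 members, 5 were called at 10 nM against vehicle at 6 h (edgeR quasi-likelihood test, Benjamini-Hochberg adjusted p under 0.05 over all genes tested). IER2, JUNB, EGR1 and FOS fell and FOSL2 rose, while JUN, JUND, ATF3, IER3 and FOSL1 were not called. Over all genes tested the same comparison called 22.6% higher and 19.4% lower, beside 1 and 4 of the 10 members. The median log2 fold change of the 9 members other than FOSL1 was 0.10, and that of all genes -0.02. With replicate number as a block in the fit (blocked values are given where they change a call), 8 members were called, 4 in each direction. Over all 13872 genes tested the block called 4380 higher and 4282 lower. At 18 h, 3 members were called at 10 nM against vehicle: FOS and FOSL2 rose and IER2 fell (background 19.0% higher and 15.2% lower, median of the 9 members -0.28, of all genes 0.00), and the block called 6, 2 higher and 4 lower. Over all genes tested the block called 3978 higher and 3789 lower there. At 100 pM no member was called at either time, where the background was 2.88% higher and 0.606% lower at 6 h and 6.57% higher and 3.89% lower at 18 h. With the block 2 members were called at 6 h, both higher, and 3 at 18 h, 2 of them higher. Over all genes tested the block called 1053 higher and 643 lower at 6 h, and 2365 higher and 2363 lower at 18 h. At 100 pM the members past an unadjusted p of 0.05 numbered 1 at each time, and DESeq2 called 0 at 6 h and 1, FOSL2, at 18 h (adjusted p = 0.0277). The comparisons of the 2 doses with vehicle share the vehicle libraries of that time.

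**Figure D1:**
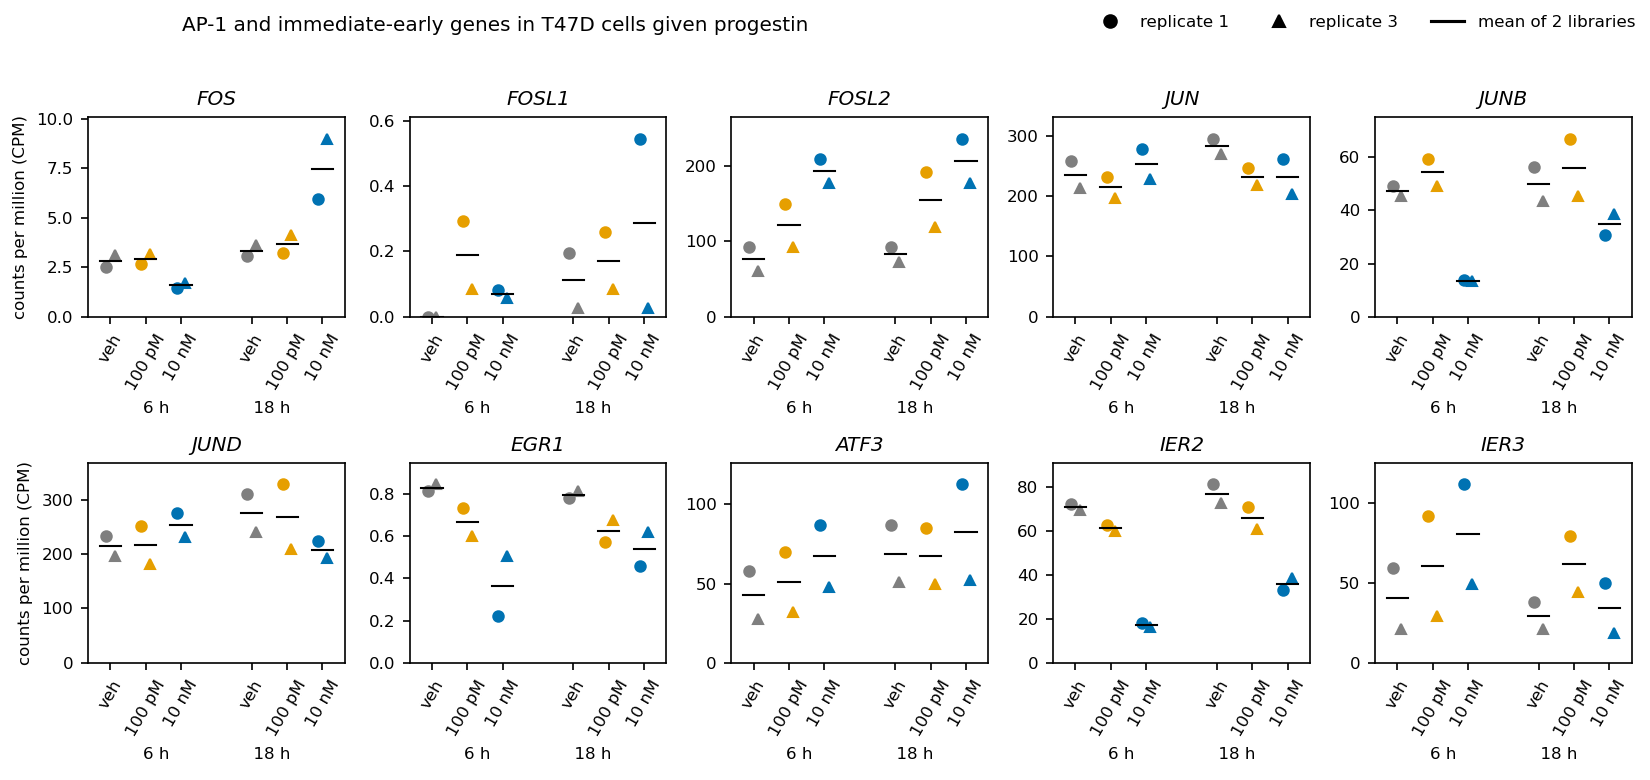
Level of each of the 10 genes in CPM (vertical axis, linear, from 0) by dose at 6 h and 18 h (horizontal axis); circles are replicate 1, triangles replicate 3 and bars the mean of the 2 libraries. JUNB and IER2 have their lowest points at 10 nM for 6 h, FOS lies lowest at 10 nM for 6 h and highest at 10 nM for 18 h, and FOSL2 stands higher at each step of dose at both times.

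**Figure D2:**
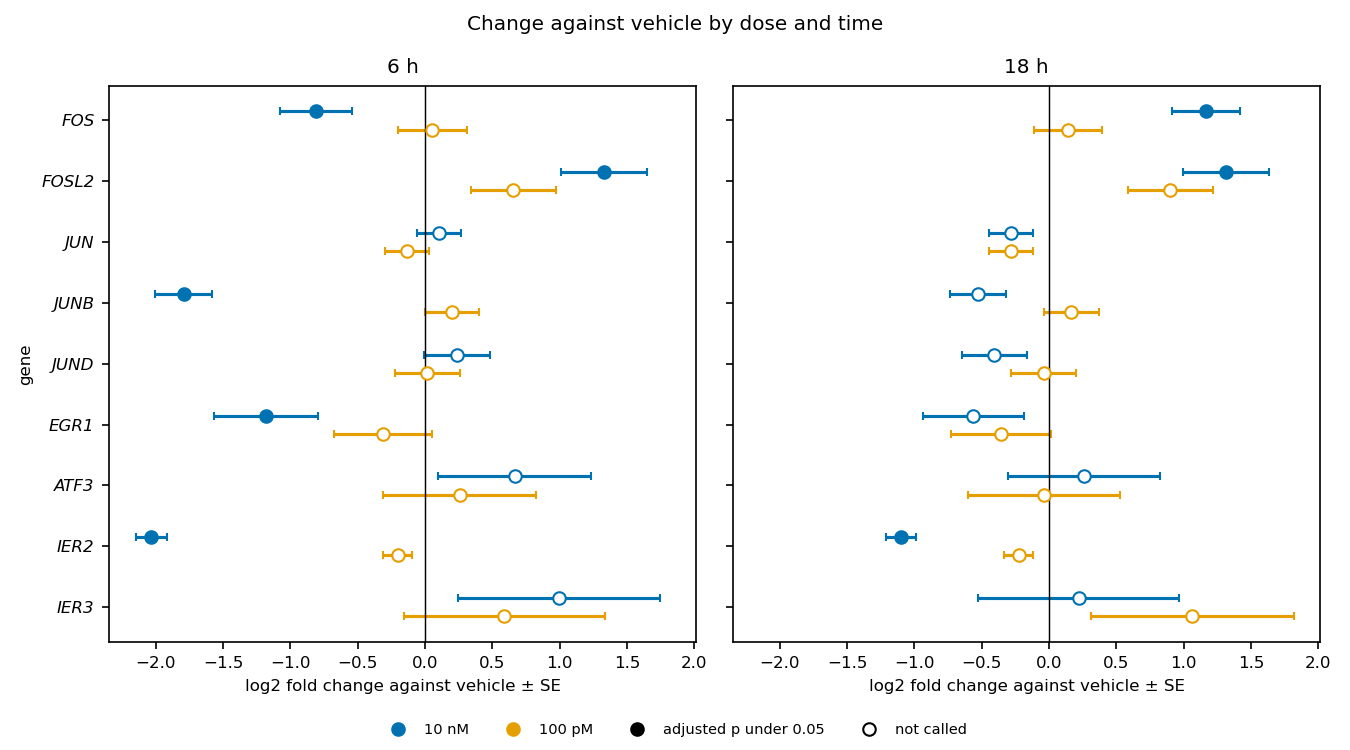
Log2 fold change against vehicle ± SE (horizontal axis) for the 9 genes other than FOSL1 (vertical axis) at 6 h and 18 h, the SE being derived from the edgeR F statistic. Blue is 10 nM, orange 100 pM, and filled symbols have an edgeR adjusted p under 0.05. All filled symbols are 10 nM, and FOS lies at 1.17 at 18 h and at -0.81 at 6 h.

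The sequence before the start of transcription is shown for the 5 members called at 10 nM for 6 h, since promoters hold the short motifs that read serum, cAMP and hormone signals. The windows are the 250 bases before the gene start in RefSeq on GRCh38.p14, all on the plus strand, and 8 of the 10 members matched a window. They are JUNB chr19:12791236-12791485, IER2 chr19:13150161-13150410, FOS chr14:75278578-75278827, EGR1 chr5:138465229-138465478 and FOSL2 chr2:28392608-28392857. Counts were made on hg19, so these positions belong to the promoters only. Capitals mark matches to the motifs searched on both strands: the AP-1 site TGANTCA, the cAMP element TGACGTCA and its core TGACG, the CArG box of serum response factor, the EGR1 site GCGNGGGCG, the progesterone receptor half-site TGTTCT and the TATA box TATAAA.
JUNB: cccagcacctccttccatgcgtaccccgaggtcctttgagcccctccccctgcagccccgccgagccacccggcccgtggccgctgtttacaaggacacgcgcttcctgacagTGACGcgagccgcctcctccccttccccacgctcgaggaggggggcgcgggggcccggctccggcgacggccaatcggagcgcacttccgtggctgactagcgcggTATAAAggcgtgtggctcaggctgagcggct
IER2: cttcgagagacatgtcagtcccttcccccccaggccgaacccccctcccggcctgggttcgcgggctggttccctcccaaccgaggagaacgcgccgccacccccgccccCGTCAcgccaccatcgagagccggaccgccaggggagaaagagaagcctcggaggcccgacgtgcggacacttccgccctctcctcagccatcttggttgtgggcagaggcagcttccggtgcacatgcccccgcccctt
FOS: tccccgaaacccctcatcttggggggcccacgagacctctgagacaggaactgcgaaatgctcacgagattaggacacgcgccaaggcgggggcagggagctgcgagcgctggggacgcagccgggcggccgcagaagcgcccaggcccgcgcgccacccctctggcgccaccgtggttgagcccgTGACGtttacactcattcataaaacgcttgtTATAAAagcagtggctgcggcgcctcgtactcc
EGR1: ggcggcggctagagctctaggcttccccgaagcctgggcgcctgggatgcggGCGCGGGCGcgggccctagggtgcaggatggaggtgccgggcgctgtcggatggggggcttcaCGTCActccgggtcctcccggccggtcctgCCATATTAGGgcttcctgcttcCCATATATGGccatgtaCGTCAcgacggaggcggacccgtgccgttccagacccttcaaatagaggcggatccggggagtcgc
FOSL2: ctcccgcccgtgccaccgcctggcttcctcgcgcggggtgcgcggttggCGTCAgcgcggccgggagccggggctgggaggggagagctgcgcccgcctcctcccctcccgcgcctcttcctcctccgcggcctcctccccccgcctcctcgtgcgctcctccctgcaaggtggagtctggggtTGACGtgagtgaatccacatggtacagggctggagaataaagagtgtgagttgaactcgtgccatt
A TGACG core, read on either strand, lay in each of the 5 windows and in 7 of the 8 members with a window, against 21.2% of 35116 RefSeq promoters of the same length. FOS, JUNB and ATF3 had a TATA box match (10.7% of promoters hold one), ATF3 being searched over its 2 windows. EGR1 had a pair of CArG boxes, 105 to 96 and 83 to 74 bases before the start (1.16% of promoters hold any), and a match to its own protein's site (8.41%). The complete cAMP element was found in JUND alone (1.65%), and it overlaps the core. No member's window held TGANTCA (6.57% of promoters) or TGTTCT (12.4%). A match describes letters in this window and is not a binding site, and a missing match says nothing about the factor.

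JUNB, which encodes a JUN protein known to restrain proliferation in several cell types, was among the most changed members. At 6 h its libraries had 49.0 and 45.5 CPM in vehicle, 59.3 and 49.4 CPM at 100 pM and 14.0 and 13.3 CPM at 10 nM (replicates 1 and 3). The 10 nM libraries lay well under all others of that time, and the 100 pM libraries lay just above vehicle. JUNB fell by 1.79 ± 0.21 on the log2 scale at 10 nM against vehicle (edgeR adjusted p = 0.000245) and by 1.99 ± 0.21 at 10 nM against 100 pM (edgeR adjusted p = 0.00019). Neither call was lost when any 1 library was left out. As a share of the summed JUN, JUNB and JUND level per kb, JUNB was 3.28% to 3.74% at 10 nM and 12% to 13.1% in vehicle at 6 h.

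By 18 h JUNB had 56.5 and 43.7 CPM in vehicle, 67.0 and 45.3 CPM at 100 pM and 30.7 and 38.8 CPM at 10 nM. The 10 nM libraries were again the lowest, by a smaller margin. The log2 fold change against vehicle was -0.53 ± 0.21 (edgeR adjusted p = 0.0803), and -0.51 ± 0.17 with replicate number as a block (edgeR adjusted p = 0.0300). Against 100 pM it was -0.69 ± 0.21 (edgeR adjusted p = 0.0370), a call lost without 100 pM replicate 1, where the value was -0.38, or without 10 nM replicate 1 (adjusted p 0.203 to 0.213), and with that time alone. In both replicate numbers and at both times JUNB was highest at 100 pM and lowest at 10 nM, but the difference of 100 pM from vehicle was not called (log2 0.20 ± 0.20 at 6 h and 0.17 ± 0.20 at 18 h, edgeR adjusted p 0.919 and 0.674).

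JUNB lies on chromosome 19, and 259 bases of its exons overlap those of HOOK2 on the other strand in GENCODE 29. The strand setting of the counts is not given in the sources used here, so reads from this stretch cannot be told apart. HOOK2, which encodes a microtubule adaptor, fell as well at 10 nM against vehicle. Its log2 fold change was -0.88 ± 0.09 at 6 h, beside -1.79 for JUNB, and -0.63 ± 0.08 at 18 h, beside -0.53 for JUNB (edgeR adjusted p of HOOK2 7.83e-05 and 0.000574). It had 52.0 and 48.7 CPM at 10 nM and 96.9 and 88.7 CPM in vehicle at 6 h. The part of HOOK2 in the JUNB counts was not tested. IER2 and IER3 also overlap antisense genes in that annotation, by 946 and 359 bases, which have no row in the count table.

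The other JUN genes, JUN, the strongest activator of the family, and JUND, which is made continuously in most cells, were abundant and changed little. At 6 h JUN had 258 and 213 CPM in vehicle, 231 and 198 CPM at 100 pM and 278 and 228 CPM at 10 nM. At 18 h it had 295 and 270 CPM in vehicle, 246 and 218 CPM at 100 pM and 261 and 203 CPM at 10 nM. Both treated groups lay under vehicle at 18 h, by the same log2 fold change of -0.28 ± 0.16 at 10 nM and at 100 pM (edgeR adjusted p 0.217 and 0.326). With the replicate block both were called (edgeR adjusted p 0.0023 at 10 nM and 0.00574 at 100 pM), as was JUN at 10 nM against 100 pM at 6 h (log2 0.24 ± 0.07 with the block, edgeR adjusted p = 0.00823, against 0.285 without it).

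JUND had 233 and 197 CPM in vehicle, 252 and 182 CPM at 100 pM and 275 and 232 CPM at 10 nM at 6 h, and the groups overlapped. At 18 h it had 311 and 241 CPM in vehicle, 328 and 208 CPM at 100 pM and 223 and 193 CPM at 10 nM. Only 10 nM and vehicle did not overlap at 18 h, with log2 fold changes of 0.24 ± 0.24 at 6 h and -0.41 ± 0.24 at 18 h for 10 nM against vehicle (edgeR adjusted p 0.466 and 0.236). With the block the adjusted p was 0.0488 at 6 h and 0.00425 at 18 h, and 0.0118 at 10 nM against 100 pM at 18 h (log2 -0.34 ± 0.10 with the block).

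FOS, whose protein is the prototype partner of JUN, was called lower at 6 h and higher at 18 h at 10 nM against vehicle. At 6 h it had 2.49 and 3.10 CPM in vehicle, 2.64 and 3.17 CPM at 100 pM and 1.47 and 1.72 CPM at 10 nM. The 10 nM libraries lay under the rest, and vehicle and 100 pM overlapped. The log2 fold change was -0.81 ± 0.26 at 10 nM against vehicle and -0.86 ± 0.26 against 100 pM (edgeR adjusted p 0.0365 and 0.0314). Each of these calls was lost when any 1 of its 4 libraries was left out (adjusted p 0.0523 to 0.181 against vehicle and 0.0542 to 0.168 against 100 pM).

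At 18 h FOS had 3.05 and 3.60 CPM in vehicle, 3.22 and 4.11 CPM at 100 pM and 5.94 and 8.99 CPM at 10 nM. The 10 nM libraries now lay above all others of the series. FOS rose by 1.17 ± 0.25 on the log2 scale at 10 nM against vehicle and by 1.03 ± 0.25 against 100 pM (edgeR adjusted p 0.00728 and 0.0167). The call against vehicle was lost without vehicle replicate 1 or 10 nM replicate 3 (adjusted p 0.0560 to 0.0614). The call against 100 pM was lost without 100 pM replicate 1 or 10 nM replicate 3 (adjusted p 0.0970 to 0.125), where the value without 10 nM replicate 3 was 0.67, and with that time alone. At 100 pM against vehicle FOS was not called, with log2 fold changes of 0.05 ± 0.26 at 6 h and 0.14 ± 0.25 at 18 h (edgeR adjusted p 1 and 0.786). With the replicate block the edgeR adjusted p of FOS at 10 nM was 0.00169 against vehicle and 0.00114 against 100 pM at 6 h. At 18 h these blocked values were 3.6e-05 against vehicle and 0.000121 against 100 pM.

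FOSL2, whose protein pairs with JUN proteins and is known in breast cancer cells for invasive growth, stood higher at each step of dose in both replicate numbers at both times. At 6 h it had 92.5 and 61.1 CPM in vehicle, 149 and 92.8 CPM at 100 pM and 209 and 177 CPM at 10 nM. At 18 h it had 93.0 and 73.1 CPM in vehicle, 191 and 118 CPM at 100 pM and 236 and 177 CPM at 10 nM. Neither dose overlapped vehicle at either time, although replicate 1 was 1.19 to 1.62 times replicate 3 in every group. For 100 pM at 6 h the margin lay within counting error. The 95% counting intervals were 89.6 to 96.1 CPM for 100 pM replicate 3 and 89.5 to 95.5 CPM for vehicle replicate 1. Lack of overlap between groups of 2 libraries is a description and was not tested.

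The rise at 10 nM against vehicle was 1.33 ± 0.32 at 6 h and 1.31 ± 0.32 at 18 h on the log2 scale (edgeR adjusted p 0.00992 and 0.0128). Both calls were lost without vehicle replicate 3 or 10 nM replicate 1 of that time (adjusted p 0.0528 to 0.0742 at 6 h and 0.0718 to 0.0853 at 18 h). At 100 pM against vehicle the log2 fold change was 0.66 ± 0.32 at 6 h and 0.90 ± 0.32 at 18 h (edgeR adjusted p 0.493 and 0.114). With the replicate block these adjusted p values became 0.00151 and 8.95e-05. For the rise at 10 nM against vehicle the block gave edgeR adjusted p values of 6.85e-07 at 6 h and 1.12e-06 at 18 h. Between doses, 10 nM minus 100 pM, the difference was 0.67 ± 0.32 at 6 h and 0.41 ± 0.31 at 18 h (edgeR adjusted p 0.129 and 0.374, and 0.00013 and 0.00437 with the block).

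FOSL1, which encodes the FOS family protein Fra-1, a mark of basal-like breast cancer cells, was close to absent. Its counts at 6 h were 0 and 0 in vehicle, 12 and 3 at 100 pM and 3 and 2 at 10 nM, and at 18 h 7 and 1 in vehicle, 10 and 3 at 100 pM and 19 and 1 at 10 nM. Only 1 library at 100 pM and none at 10 nM held more than 3 counts at 6 h, so no fold is given over the vehicle libraries without counts. FOSL1 was called in no comparison, except that the block gave an adjusted p of 0.0263 at 100 pM against vehicle at 6 h (edgeR, 0.416 without the block). In the 5 groups with counts, replicate 1 had a higher CPM than replicate 3 by 1.47 to 19.4 times. The FOS family gene outside the 10, FOSB, was looked at after its values were seen. It fell by 1.61 ± 0.32 at 6 h and by 1.38 ± 0.30 at 18 h at 10 nM against vehicle (edgeR adjusted p 0.00398 and 0.00777, the call at 18 h lost without vehicle replicate 1, adjusted p = 0.0593). FOSB had 0.609 and 0.621 CPM at 10 nM and 1.68 and 2.10 CPM in vehicle at 6 h, and 1.29 and 1.32 CPM at 10 nM and 4.08 and 2.73 CPM in vehicle at 18 h.

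EGR1, a zinc finger factor that serum and MAP kinase signals induce, stood lower at each step of dose in both replicate numbers at both times, at very low levels. At 6 h it had 0.814 and 0.845 CPM in vehicle (32 and 33 counts), 0.734 and 0.600 CPM at 100 pM and 0.221 and 0.508 CPM at 10 nM (8 and 18 counts). The exact 95% counting interval of the lowest library was 0.0956 to 0.436 CPM, which covers counting error only. The 2 libraries at 10 nM differed from each other by more than those of any other group. The log2 fold change at 10 nM against vehicle was -1.18 ± 0.39 (edgeR adjusted p = 0.0376). It was -0.70 without 10 nM replicate 1 and -1.89 without 10 nM replicate 3. The call was lost without vehicle replicate 1, vehicle replicate 3 or 10 nM replicate 1 (adjusted p 0.0977 to 0.201), and with that time alone. Against 100 pM the difference of -0.87 ± 0.39 was not called (edgeR adjusted p = 0.117), but was without 10 nM replicate 3 (adjusted p = 0.0338).

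At 18 h EGR1 had 0.783 and 0.812 CPM in vehicle, 0.571 and 0.676 CPM at 100 pM and 0.459 and 0.618 CPM at 10 nM. All treated libraries lay under both vehicle libraries, with log2 fold changes of -0.56 ± 0.38 at 10 nM and -0.36 ± 0.37 at 100 pM, and neither was called (edgeR adjusted p 0.289 and 0.611).

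IER2, a nuclear protein of the immediate-early response that has been linked to cell motility, had the smallest adjusted p of the 10 in each comparison of 10 nM with vehicle or 100 pM. At 6 h it had 72.3 and 69.4 CPM in vehicle, 63.0 and 60.2 CPM at 100 pM and 18.2 and 16.4 CPM at 10 nM. At 18 h it had 81.2 and 73.0 CPM in vehicle, 70.8 and 61.1 CPM at 100 pM and 33.3 and 38.7 CPM at 10 nM. No groups of a time overlapped, and the order of doses was the same in both replicate numbers. IER2 fell by 2.03 ± 0.11 at 6 h and by 1.10 ± 0.11 at 18 h on the log2 scale at 10 nM against vehicle (edgeR adjusted p 4.84e-06 and 0.000118). It fell by 1.83 ± 0.11 at 6 h and by 0.87 ± 0.11 at 18 h at 10 nM against 100 pM (edgeR adjusted p 1.19e-05 and 0.000622). None of these 4 calls was lost when any 1 library was left out. The steps at 100 pM against vehicle, -0.20 ± 0.11 at 6 h and -0.23 ± 0.11 at 18 h, were not called (edgeR adjusted p 0.583 and 0.235).

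The remaining members, ATF3, a stress-induced bZIP factor that mostly represses, and IER3, a regulator of survival under stress, had a wide spread between replicates in every group. At 6 h ATF3 had 57.7 and 27.5 CPM in vehicle, 69.8 and 32.0 CPM at 100 pM and 87.2 and 48.0 CPM at 10 nM. At 18 h it had 86.8 and 51.1 CPM in vehicle, 85.2 and 49.5 CPM at 100 pM and 113 and 52.3 CPM at 10 nM. Replicate 1 was 1.70 to 2.18 times replicate 3 in each of the 6 groups, and the dose groups overlapped at both times. ATF3 was called in no comparison; at 10 nM against vehicle for 6 h its log2 fold change was 0.67 ± 0.57 (edgeR adjusted p = 0.382), and 0.70 ± 0.10 with the replicate block (edgeR adjusted p = 5.31e-05). The block also called ATF3 higher at 10 nM against 100 pM (edgeR adjusted p 0.00167 at 6 h and 0.0457 at 18 h).

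IER3 had 59.6 and 21.1 CPM in vehicle, 91.9 and 29.4 CPM at 100 pM and 112 and 49.1 CPM at 10 nM at 6 h. At 18 h it had 38.3 and 20.8 CPM in vehicle, 79.5 and 44.0 CPM at 100 pM and 50.0 and 18.8 CPM at 10 nM. Within each replicate number it stood higher at each dose at 6 h and was highest at 100 pM at 18 h, while replicate 1 was 1.81 to 3.13 times replicate 3. Without the block IER3 was called in no comparison (log2 0.99 ± 0.75 at 10 nM for 6 h, edgeR adjusted p = 0.322, and 1.06 ± 0.75 at 100 pM for 18 h, 0.433). With it, IER3 was higher at 10 nM than vehicle at 6 h (1.05 ± 0.18, edgeR adjusted p = 0.000821) and at 100 pM than vehicle at 18 h (1.07 ± 0.19, 0.00217). Against 100 pM it was then higher at 10 nM for 6 h (0.48 ± 0.18, 0.0421) and lower at 10 nM for 18 h (-0.94 ± 0.18, 0.00247).

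**Figure D3:**
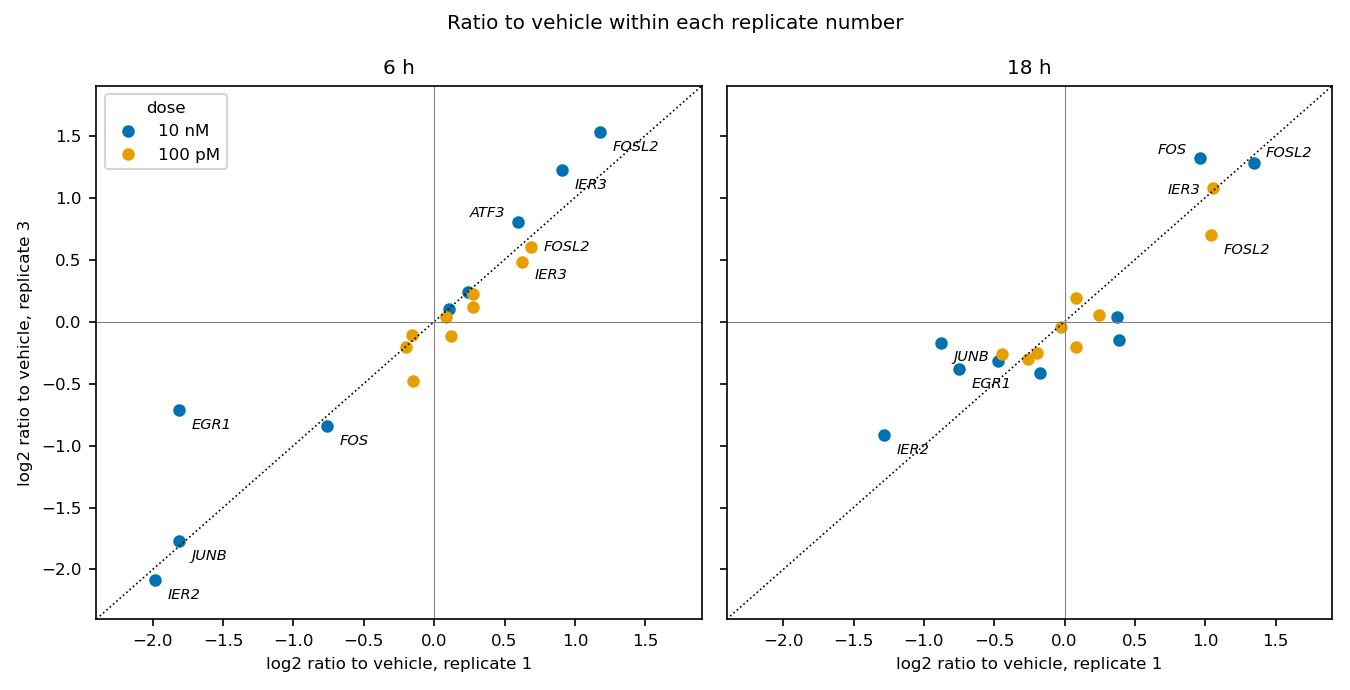
Log2 ratio to vehicle within replicate 1 (horizontal axis) and within replicate 3 (vertical axis) for the 9 genes other than FOSL1, at 6 h and 18 h; blue is 10 nM, orange 100 pM, and the dotted line marks equal ratios. EGR1 at 10 nM for 6 h lies far from the line, at -1.81 in replicate 1 and -0.72 in replicate 3, and IER3 at 10 nM for 18 h lies at 0.38 in replicate 1 and -0.15 in replicate 3.

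Set directly against each other, the doses differed for 3 members at each time. At 6 h IER2, JUNB and FOS were lower at 10 nM than at 100 pM and none was higher (background 20.1% higher and 16.8% lower). At 18 h FOS was higher and IER2 and JUNB were lower (background 14.8% higher and 11.4% lower). With the replicate block the count of members became 7 at each time, 4 higher and 3 lower at 6 h and 3 higher and 4 lower at 18 h. Over all 13872 genes tested the block called 4095 higher and 4136 lower at 6 h, and 3529 higher and 3429 lower at 18 h.

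The difference between the times was itself tested, as the effect of 10 nM against vehicle at 18 h minus that at 6 h. It was above 0 for FOS (1.98 ± 0.37 on the log2 scale, edgeR adjusted p = 0.0140), JUNB (1.27 ± 0.29, 0.0308) and IER2 (0.94 ± 0.16, 0.00966), where 4.55% of all genes were called higher and 5.99% lower. FOS turned over to the other side of vehicle, whereas JUNB and IER2 stayed under vehicle by a smaller margin. IER2 kept its call when any 1 of the 8 libraries was left out. FOS lost it without vehicle replicate 3 or 10 nM replicate 1 at 6 h, or without vehicle replicate 1 at 18 h (adjusted p 0.0569 to 0.0615). JUNB lost it for each of the 8 libraries except 10 nM replicate 1 at 18 h (adjusted p 0.0524 to 0.0919). With the block JUN, JUND, ATF3 and IER3 were called as well, all below 0 (edgeR adjusted p 0.00417 to 0.0246). Over all 13872 genes tested the block called 2358 above 0 and 2505 below 0. For FOSL2 the effects at the 2 times differed by -0.01 ± 0.44 (edgeR adjusted p = 0.993).

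For 100 pM against vehicle no member differed between the times by edgeR, by DESeq2 or at an unadjusted p under 0.05, and the background was 0% higher and 0.0144% lower. In vehicle, 18 h against 6 h called no gene either way in edgeR (background 0% and 0%), with 178 genes and 0 members under an unadjusted p of 0.05 and 2 genes in DESeq2. Vehicle levels of the 9 members other than FOSL1 differed by log2 fold changes of -0.45 (IER3) to 0.70 (ATF3) between the times, and the block called ATF3 higher at 18 h (edgeR adjusted p = 0.0229). Over all 13872 genes tested the block called 4 in vehicle over time, all higher.

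Genes around the 10 were counted in full from 5 lists, each given beside the share called over all genes tested by the fit without the block. Blocked counts need another background, since the block called more of the 13872 genes against vehicle. At 10 nM it called 4380 higher and 4282 lower at 6 h, and 3978 and 3789 at 18 h. At 100 pM it called 1053 higher and 643 lower at 6 h, and 2365 and 2363 at 18 h. Of 43 tested other immediate-early genes, 16 rose and 6 fell at 10 nM against vehicle at 6 h (20 and 10 with the block), beside 22.6% higher and 19.4% lower over all genes tested. At 18 h 10 rose and 10 fell (19 and 15 with the block), beside 19.0% and 15.2%. At 100 pM 6 rose and 1 fell at 6 h (14 and 3 with the block), beside 2.88% and 0.606%, and 7 rose and 2 fell at 18 h (16 and 8 with the block), beside 6.57% and 3.89%. The median log2 fold change of the list was 0.11 at 10 nM and 0.17 at 100 pM at 6 h, and 0.25 and 0.21 at 18 h, where the medians of all genes lay between -0.03 and 0.00.

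Among the other immediate-early genes, CSRNP1, a nuclear factor, stood at 22.5 ± 3.30 CPM in vehicle at 6 h, 65.0 ± 2.12 CPM with 100 pM and 103 ± 2.65 CPM with 10 nM (SD, n = 2 libraries each). Its log2 fold change against vehicle was 2.20 ± 0.12 at 10 nM and 1.53 ± 0.11 at 100 pM (edgeR adjusted p 4.02e-06 and 0.000169). ZFP36, which destabilises AU-rich mRNAs, and SIK1, a salt-inducible kinase, rose at 100 pM for 6 h by 1.0 ± 0.10 and 2.49 ± 0.28 (edgeR adjusted p 0.000684 and 0.0015). IER5 rose at 10 nM for 6 h by 1.97 ± 0.17 (edgeR adjusted p = 4.53e-05), with 133 ± 1.43 CPM at 10 nM and 34.1 ± 2.18 CPM in vehicle (SD, n = 2). ZFP36L2, of the same RNA-binding family as ZFP36, fell with 10 nM by 1.75 ± 0.14 at 6 h and by 2.82 ± 0.14 at 18 h (edgeR adjusted p 2.56e-05 and 5.09e-06). DUSP4, a phosphatase of MAP kinases, rose at 10 nM for 18 h by 3.07 ± 0.34, and DUSP5, of the same family, fell at 10 nM against 100 pM at 6 h by 1.48 ± 0.19 (edgeR adjusted p 0.000209 and 0.00045). ARC, a neuronal immediate-early gene, split by dose at 18 h, with 0.510 ± 0.113 CPM at 10 nM, 4.99 ± 0.403 CPM at 100 pM and a rise of 1.85 ± 0.27 at 100 pM against vehicle (SD, n = 2 libraries; edgeR adjusted p = 0.00358).

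Of 31 tested partners among AP-1 and other bZIP genes, 7 rose and 8 fell at 10 nM at 6 h (9 and 16 with the block), beside 22.6% higher and 19.4% lower over all genes tested. Shares here are without the block, and its counts over all genes are given with the first list. At 18 h 8 rose and 7 fell (11 and 12 with the block), beside 19.0% and 15.2%. At 100 pM 1 rose at 6 h (4 rose and 2 fell with the block), beside 2.88% and 0.606%, and 1 rose and 4 fell at 18 h (3 and 6 with the block), beside 6.57% and 3.89%. The median log2 fold change of the list at 10 nM was -0.23 at 6 h and -0.06 at 18 h. CREM, a cAMP-responsive factor that includes repressor forms, rose at 10 nM by 1.93 ± 0.14 at 6 h and 1.58 ± 0.14 at 18 h (edgeR adjusted p 1.77e-05 and 5.97e-05). ATF5 and MAF fell at 10 nM for 6 h, with log2 fold changes of -0.96 ± 0.09 and -3.77 ± 0.40 (edgeR adjusted p 8.61e-05 and 0.000123). CREB5 fell at 18 h at both doses, with log2 fold changes of -2.05 ± 0.22 at 10 nM and -1.49 ± 0.22 at 100 pM (edgeR adjusted p 0.000189 and 0.00394). ATF6 was the gene of the list called at 100 pM for 6 h (0.36 ± 0.08, edgeR adjusted p = 0.0491), a call lost without any 1 of its 4 libraries (adjusted p 0.114 to 0.312).

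Of 31 tested kinases and factors upstream of immediate-early genes, 10 rose and 6 fell at 10 nM at 6 h (13 and 9 with the block), beside 22.6% higher and 19.4% lower over all genes tested. Shares here are without the block, and its counts over all genes are given with the first list. At 18 h 7 rose and 8 fell (10 and 11 with the block), beside 19.0% and 15.2%, and the list's median log2 fold change was 0.08 at 6 h and -0.01 at 18 h. RPS6KA5, the histone kinase MSK1 that MAP kinases activate, rose at both doses and both times, by 2.35 ± 0.17 and 1.67 ± 0.16 at 10 nM and 100 pM for 6 h (edgeR adjusted p 1.55e-05 and 0.000654). At 18 h its rise was 1.75 ± 0.16 at 10 nM and 1.99 ± 0.16 at 100 pM (edgeR adjusted p 8.24e-05 and 0.000233). MAPK13, a MAP kinase, fell at 10 nM against vehicle for 6 h, with a log2 fold change of -0.57 ± 0.07 (edgeR adjusted p = 0.000369). None of the 8 falls at 10 nM for 18 h was among the 3 genes with the smallest adjusted p. ELK1, the ternary complex factor at serum response elements, rose at 10 nM by 1.08 ± 0.08 at 6 h and 0.72 ± 0.08 at 18 h (edgeR adjusted p 2.21e-05 and 0.000247), with 97.9 ± 2.93 CPM at 10 nM and 46.2 ± 0.478 CPM in vehicle at 6 h (SD, n = 2). MAP2K1, the kinase MEK1, rose by 1.30 ± 0.09 at 10 nM for 18 h and by 0.46 ± 0.09 at 100 pM for 18 h (edgeR adjusted p 1.73e-05 and 0.0133). The call at 100 pM was lost without any 1 of its 4 libraries (adjusted p 0.0551 to 0.0976). At 100 pM these were the calls of the list, 1 higher at 6 h, beside 2.88% and 0.606%, and 2 higher at 18 h, beside 6.57% and 3.89% (with the block 2 rose and 3 fell at 6 h, and 4 rose and 6 fell at 18 h).

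Of 21 tested AP-1 target genes, 4 rose and 3 fell at 10 nM at 6 h (6 and 4 with the block), beside 22.6% higher and 19.4% lower over all genes tested. Shares here are without the block, and its counts over all genes are given with the first list. At 18 h 7 rose and 4 fell (8 and 8 with the block), beside 19.0% and 15.2%. At 100 pM 1 rose at 6 h (4 with the block), beside 2.88% and 0.606%, and 4 rose and 2 fell at 18 h (6 and 2 with the block), beside 6.57% and 3.89%. The list's median log2 fold change at 10 nM was -0.18 at 6 h and 0.27 at 18 h, or -0.02 at 18 h without EREG, which had no count in 1 of the groups compared. Another 11 of the 32 listed had too few counts to test, among them most of the matrix metalloproteinases. CCND1, which encodes cyclin D1, rose by 2.26 ± 0.17 at 10 nM and by 2.10 ± 0.17 at 100 pM for 6 h (edgeR adjusted p 2.24e-05 and 0.000259). CD44, a hyaluronan receptor, rose by 2.56 ± 0.24 at 10 nM for 18 h, with 570 ± 152 CPM at 10 nM and 96.8 ± 15.4 CPM in vehicle (SD, n = 2; edgeR adjusted p = 8.27e-05). VEGFA, a growth factor for vessels, rose by 1.10 ± 0.15 at 10 nM for 6 h (edgeR adjusted p = 0.000423). KRT18, a luminal keratin that is also among the luminal markers, fell at 10 nM by 1.0 ± 0.11 at 6 h and fell by 1.35 ± 0.11 at 18 h, and FN1, fibronectin, fell by 1.47 ± 0.12 at 18 h (edgeR adjusted p 0.000178, 4.67e-05 and 4.67e-05).

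Of 14 tested EGR1 target genes, 3 rose and 5 fell at 10 nM at 6 h (5 and 5 with the block), beside 22.6% higher and 19.4% lower over all genes tested. Shares here are without the block, and its counts over all genes are given with the first list. At 18 h 2 rose and 4 fell (4 and 4 with the block), beside 19.0% and 15.2%, and the list's median log2 fold change was 0.14 at 6 h and -0.11 at 18 h. At 100 pM 1 rose at 6 h (2 rose and 1 fell with the block), beside 2.88% and 0.606%, and 2 rose and 1 fell at 18 h (3 and 3 with the block), beside 6.57% and 3.89%. NAB2, which EGR1 induces and which in turn represses EGR1, fell by 1.66 ± 0.13 at 10 nM for 6 h, with 20.6 ± 0.533 CPM at 10 nM and 64.8 ± 2.12 CPM in vehicle (SD, n = 2; edgeR adjusted p = 2.32e-05). F3, tissue factor, rose by 3.0 ± 0.38 at 10 nM and by 2.64 ± 0.38 at 100 pM for 6 h (edgeR adjusted p 0.000354 and 0.00546), the call at 100 pM lost without vehicle replicate 1 (adjusted p = 0.0699). CDKN1A, the cell cycle inhibitor p21, rose by 1.08 ± 0.15 at 6 h and 1.64 ± 0.15 at 18 h at 10 nM, and PDGFB, a growth factor, fell by 1.75 ± 0.22 at 10 nM for 18 h (edgeR adjusted p 0.000518, 7.12e-05 and 0.000449).

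**Figure D4:**
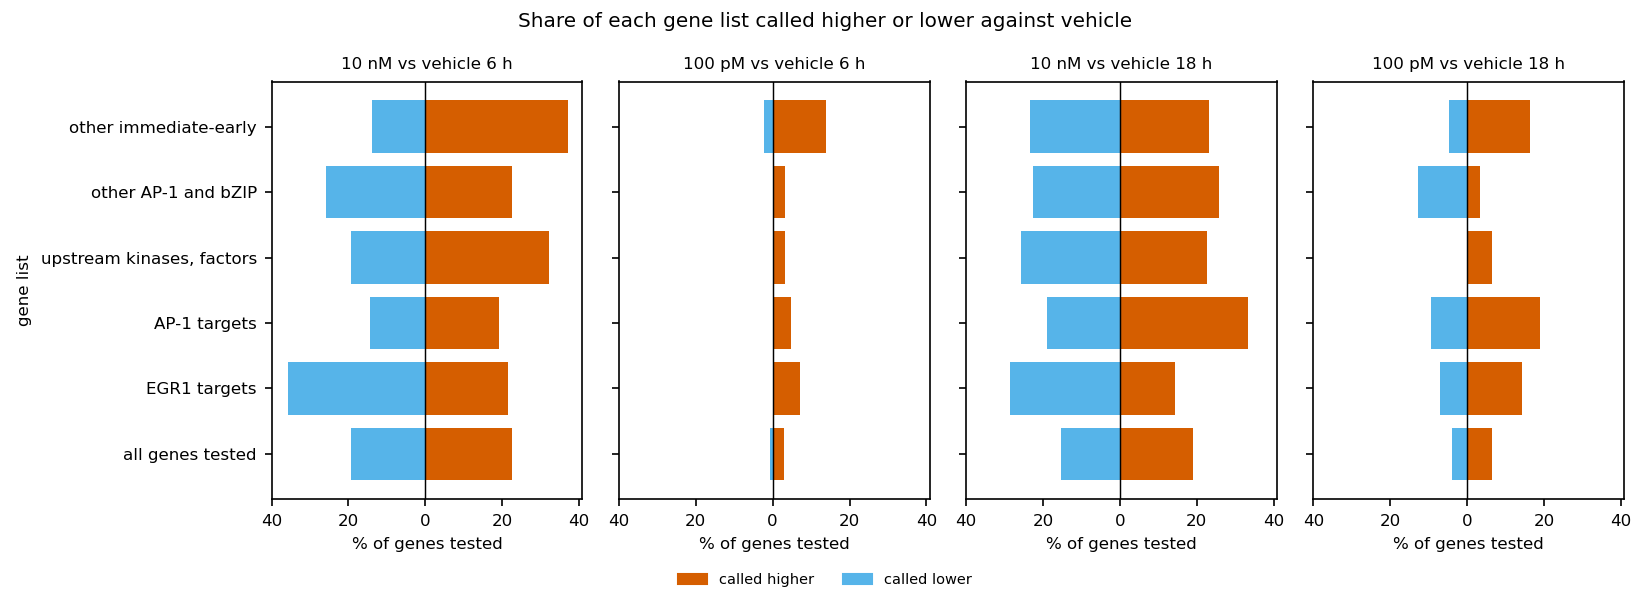
Share of the tested genes of each list (vertical axis) called higher (orange, to the right of 0) or lower (blue, to the left of 0) against vehicle, in percent of the genes tested (horizontal axis), for 10 nM and 100 pM at 6 h and 18 h. At 100 pM for 18 h the called share, higher and lower together, ran from 6.45% (kinases and factors upstream) to 28.6% (AP-1 targets). Over all genes tested 6.57% were called higher and another 3.89% lower, together 1450 of 13872 genes. The 6.45% thus lay under the combined share of all genes. The lists hold 14 to 43 tested genes each.

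The genes whose levels ran most like each member over the 12 libraries were taken by Pearson correlation of log2 CPM, as a description over points that share doses, times and replicate numbers. JUNB ran closest to TMC6 (r = 0.992), TRIM56 and H1F0 (0.970 each), and IER2 to ARID5B (0.992), NOTCH3 (0.990) and RNF222 (0.989). FOSL2 ran closest to ST3GAL4 (0.980), GIPC1 (0.976) and H3F3B (0.970), and FOS to STON2 (0.956), MANBA (0.950) and YEATS4 (0.937). For EGR1 these were SLC8A1 (0.945), AKR1A1 (0.933) and PLD1 (0.933), for ATF3 BOD1 (0.966), TRIB3 (0.960) and RRAGC (0.959), and for JUND RELA (0.958), FAM50A (0.929) and TICAM1 (0.928). JUN and IER3 had weaker nearest genes, DIEXF (0.915) and SEPT11 (0.925), and FOSL1, at its low counts, had SELM (0.854). Within the 10, JUNB and IER2 ran closest to each other (r = 0.954).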

How the data were processed

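The authors deposited raw counts of reads per gene from total RNA (Nextera libraries). STAR, DESeq2 and hg19 are named, without roles or versions, per the submitters' processing notes, and the sources used here do not give the counter, annotation or strand setting. All 12 columns were used, and 2709 of 20114 genes had no count. Genes were kept by filterByExpr over the 6 groups (13872), scaled by TMM and tested in edgeR 4.0.16 (R 4.3.3, limma 3.58.1) by the robust quasi-likelihood F test, in 1 fit of 12 libraries with a coefficient per group and 6 residual degrees of freedom. In all, 9 comparisons were made: each dose against vehicle and 10 nM against 100 pM at each time, the change of each dose's effect between times, and vehicle over time. A call is a Benjamini-Hochberg adjusted p under 0.05 over all genes tested, and DESeq2 1.42.0 was an alternative. Errors of fold changes are SE, derived as the absolute log2 fold change divided by the square root of the F statistic. The test was checked on simulated data for 10 nM against vehicle at 6 h, drawn with no effect shared by replicate number, unlike these libraries. It called 14.9% of 67 genes changed 1.5-fold, 61.2% of 67 changed 2-fold and 84.8% of 66 changed 4-fold, with 4 false calls. A member not called may therefore still have changed.

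Libraries of the same replicate number deviated together from their group means (r of 0.464 to 0.677 over 15 pairs of groups, across 13872 genes). Nothing in the labels says what a number shares, so the fit with replicate number as a block (5 residual degrees of freedom, biological coefficient of variation 0.0678 against 0.163) is given beside each member's result where it changes the call, and beside counts of calls. The 2 libraries of each group were no copies of each other (chi-square of 43.1 to 65.1 for each degree of freedom). In fits without 1 library, a group's remaining library was taken to vary as much as other groups did, and these fits held no block.

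The members and gene lists were chosen with earlier results of these data known. Every member is reported, and at most 3 called genes per list and comparison were eligible to be named, those with the smallest adjusted p, of which the text gives some. ARC, once named, is also given in comparisons where it was not eligible. Of listed genes, 7 stood in more than 1 list. Ratios within a replicate number had 0.5 counts added and log2 CPM for correlations used a prior count of 2. Intervals cover counting error only, since PCR copies carry no molecular identifiers.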

Additional observations from a re-analysis of the deposited data

Results flagged for a closer look

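Some members had an effect of 10 nM against vehicle that differed between 18 h and 6 h by the test of the difference itself (edgeR quasi-likelihood, Benjamini-Hochberg adjusted over 13872 genes). For FOS the difference, 18 h minus 6 h, was 1.98 on the log2 scale (adjusted p = 0.0140), with log2 fold changes of 1.17 at 18 h and -0.81 at 6 h in which both replicate numbers showed the direction at each time. For JUNB it was 1.27 (adjusted p = 0.0308), with -0.53 at 18 h and -1.79 at 6 h. For IER2 it was 0.94 (adjusted p = 0.00966), with -1.10 at 18 h and -2.03 at 6 h. Over all genes 4.55% had a difference called above 0 and 5.99% one called below 0. Groups of 2 libraries do not allow a test of whether 1 library stands apart.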

How the results depend on the processing

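Over all alternatives, 854 values of members were recomputed, 794 stayed on the same side of the threshold with no call reversed, 34 lost a call and 26 gained one. Another scaling (DESeq2 size factors) or no filter on low counts changed no member's call or direction. Leaving out 1 library turned the sign of 73 of 440 values, none of them a called one, and no other setting turned a sign. Groups of 2 limit the precision, and EGR1 and FOSL1 are limited by their counts.

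With the replicate block the members called became 8 from 5 at 10 nM against vehicle for 6 h, 2 from 0 at 100 pM for 6 h, 7 from 3 for 10 nM against 100 pM at 6 h, 6 from 3 at 10 nM for 18 h, 3 from 0 at 100 pM for 18 h, 7 from 3 for 10 nM against 100 pM at 18 h, 7 from 3 for the change of the 10 nM effect and 1 from 0 in vehicle over time. The block changed no other call than those given beside the results, and no member lost a call with it. DESeq2 called 1 member at 100 pM for 18 h, and with that time alone 1 was called for 10 nM against 100 pM at 18 h. Without 1 library these counts ran from 2 to 4 (10 nM, 6 h), 1 to 3 (10 nM against 100 pM, 18 h) and 1 to 3 (change of the 10 nM effect).

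The genes called moved from 483 to 849 with DESeq2, 1696 with the block and 221 to 308 without 1 library (100 pM, 6 h), and from 1450 to 2231, 4728 and 512 to 845, and to 655 with that time alone (100 pM, 18 h). They moved from 5127 to 8231 with the block and 3281 to 4242 without 1 library (10 nM against 100 pM, 6 h), from 4734 to 7767 with the block (10 nM, 18 h), and from 3635 to 6958 with the block and 2286 to 2900 without 1 library (10 nM against 100 pM, 18 h). For the change of the 10 nM effect 1462 became 2316 with DESeq2, 4863 with the block and 467 to 860 without 1 library. For that of the 100 pM effect 2 became 1 with DESeq2 size factors, 108 with DESeq2, 5 without the filter, 777 with the block and 0 to 0 without 1 library. In vehicle over time 0 became 2 with DESeq2 and 4 with the block. At 10 nM against vehicle for 6 h 5826 became 8662 with the block. The cause of these moves was not tested.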
